A study of Mus musculus with 3 samples.

Results

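This account covers 10 mouse genes of the major histocompatibility complex (MHC) class I pathway among the 24982 gene symbols counted: the heavy chain genes H2-T23, H2-Q4, H2-K1 and H2-D1, the light chain gene B2m, the peptide loading genes Tap1, Tap2 and Tapbp, and the immunoproteasome genes Psmb8 and Psmb9. The genes were chosen by symbol with their values in these libraries already known to be higher in the KO library than in WT. Their difference between KO and WT is therefore given as a description, without a test.

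RNA was sequenced from LKS cells, the Lin-negative, Kit-positive and Sca1-positive fraction of bone marrow that contains blood stem cells and early progenitors. A label field also calls them LLP cells, a term it does not explain. The cells were sorted from 2 groups of mice that the design text calls recipients, wild type (WT, 2 libraries) and CD73-/- (KO, 1 library). CD73 is the cell surface enzyme that makes adenosine from AMP, and its gene, Nt5e, had 0 counts in all 3 libraries, so the label could not be checked with it. The sources used here do not give age, sex, strain, donor or the pooling of animals, nor the origin of the sorted cells from donor or recipient, and nothing states that the WT libraries came from separate animals. In bulk RNA, a higher level per cell and a larger share of cells expressing a gene cannot be told apart.

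Class I molecules sit on the surface of almost all nucleated cells and show short peptides from the cell's own proteins to CD8 T cells and natural killer cells. Proteasomes cut proteins in the cytosol, the TAP transporter carries the peptides into the endoplasmic reticulum, and tapasin bridges the transporter to an empty heavy chain paired with beta-2-microglobulin until a peptide is bound. Transcription of these genes is known to respond to interferons, to the class I transactivator NLRC5 and, for the classical heavy chains, to NF-kB.

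Of the 10 genes, 9 lie on chromosome 17 of mm10 (GRCm38) within 2113224 bases of the MHC region. In map order these are Tapbp at 33919478 to 33929290, H2-K1 at 33996012 to 34000619, Psmb9 at 34182030 to 34187330, Tap1 at 34187556 to 34197225, Psmb8 at 34198195 to 34201454, Tap2 at 34204479 to 34216321, H2-D1 at 35263094 to 35267497, H2-Q4 at 35379617 to 35384674 and H2-T23 at 36029977 to 36032701. B2m lies apart on chromosome 2, at 122147687 to 122153082. The counts are given per annotated transcript, not per exon, and the stretch over which reads were counted is not stated. Psmb9, Tap1, Psmb8 and Tap2 lie side by side in 34292 bases, and Psmb9 and Tap1 are read away from each other from starts that are 225 bases apart.

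The sequence before the transcript start is shown for the 6 genes whose promoters match TGACG, among them Psmb9, the gene of the 10 that was not highest in KO. The promoters of H2-T23 and Tapbp share other motifs with these and are not shown. Sequences are RefSeq promoters of GRCm38.p6, written in the direction of transcription, which were found for 9 of the 10 genes (none for Tap2). For H2-K1 the transcript start used lies inside the gene span given above, which reaches to 34000619. Its stretch thus precedes that start but lies within the span. Capitals mark matches, on either strand, to a kappa B site (GGGANNNCC), an interferon-stimulated response element (ISRE, GAAANNGAA, or the variant GAANNGAAA added after the sequences had been seen), a CRE-like X2 box core (TGACG) and a Y box (ATTGG).
H2-K1, chr17:34000353-34000482, minus strand: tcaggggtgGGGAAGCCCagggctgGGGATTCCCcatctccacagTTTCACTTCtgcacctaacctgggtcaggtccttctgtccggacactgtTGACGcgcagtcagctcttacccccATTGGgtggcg
H2-D1, chr17:35262899-35263048, plus strand: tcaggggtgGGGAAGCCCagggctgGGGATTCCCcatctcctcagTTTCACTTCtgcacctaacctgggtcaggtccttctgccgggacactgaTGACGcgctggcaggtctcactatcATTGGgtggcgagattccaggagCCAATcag
H2-Q4, chr17:35379422-35379571, plus strand: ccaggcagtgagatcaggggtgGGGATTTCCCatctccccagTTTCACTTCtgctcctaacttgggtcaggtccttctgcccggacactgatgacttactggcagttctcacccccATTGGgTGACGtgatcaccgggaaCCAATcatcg
B2m, chr2:122147542-122147646, plus strand: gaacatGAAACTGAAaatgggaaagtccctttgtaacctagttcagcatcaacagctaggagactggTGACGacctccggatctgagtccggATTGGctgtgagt
Psmb9 and Tap1, the whole stretch between their starts, chr17:34187331-34187555, in the direction of Tap1: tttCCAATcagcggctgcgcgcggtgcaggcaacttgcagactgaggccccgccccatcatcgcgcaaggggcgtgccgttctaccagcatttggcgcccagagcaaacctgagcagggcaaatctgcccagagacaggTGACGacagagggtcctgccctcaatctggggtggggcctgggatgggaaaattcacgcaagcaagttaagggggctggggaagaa

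H2-K1 and H2-D1 held the same 5 matches in the same order and at the same distances: 16 bases from the first kappa B match to the second, 20 from there to the ISRE-like match, 49 to TGACG and 25 to ATTGG. Of the 250 bases before the start, 68% were identical between H2-K1 and H2-D1 in a global alignment, 80.8% between H2-D1 and H2-Q4 and 65.6% between H2-K1 and H2-Q4. The same measure was between 49.2% and 54% for each pair that included H2-T23 or B2m. The kappa B motif matched 3 of the 9 promoters, those of H2-K1, H2-D1 and H2-Q4, against 15.8% of all 32851 promoters in the table. The ISRE matched those of B2m and H2-T23 (7.13% of all promoters), and its variant the 3 with a kappa B match (6.31%). TGACG matched 6 of 9 (17.8% of all) and ATTGG 8 of 9 (33.8%). In H2-Q4 the TGACG match began 73 bases before the start, downstream of ATTGG at 79, the reverse of the order in H2-K1 and H2-D1. For Tap1 the TGACG match began 86 and the Y box match 222 bases before the start. In these promoters the name X2 rests on the letters alone, and the 6 do not share 1 arrangement. A gamma-activated site (TTCNNNGAA, 7.02% of all) was matched in the promoter of Psmb8 alone, where none of the other motifs was found. Matches overlap in H2-Q4, where 1 kappa B stretch matched on both strands. These are letter matches and do not show binding.

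**Figure D1:**
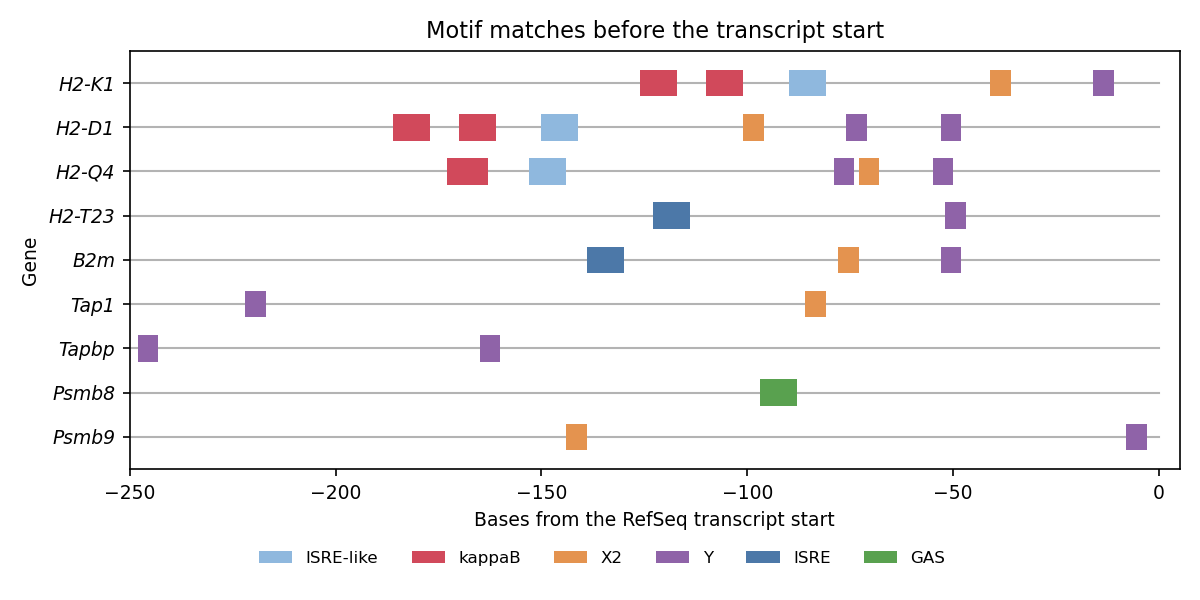
Motif matches in the 250 bases before the RefSeq transcript start of 9 genes, with the distance in bases on the x axis. Each coloured block is a match of the named motif on either strand. For H2-K1 the more upstream of 2 starts with a promoter sequence was used, which lies inside the gene span given above. The kappa B blocks appear in the rows of H2-K1, H2-D1 and H2-Q4, and the row of Psmb8 holds the GAS block alone.

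The libraries were shallow. WT replicate 1 held 361638 gene counts, WT replicate 2 held 324954 and KO held 264704, and values in this order are given throughout. The 10 genes together took 0.870%, 0.715% and 1.29% of them. A count of 0 allows up to 3 counts, or 8.30 to 11.3 CPM depending on the library, CPM being counts scaled to a library total of 1000000 gene counts. All 10 genes reached 50 counts in 1 or more libraries. Of the gate genes, Kit had 187, 207 and 147 counts and Ly6a, which encodes Sca1, had 60, 19 and 36. Intervals are exact Poisson intervals at 95% and cover counting error only.

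Within WT cells, levels between genes were compared in the deposited FPKM (fragments per kilobase of transcript, scaled to depth), a measure per transcript length. H2-K1, a classical heavy chain, was highest at 1867 ± 270 FPKM (SD, n = 2), followed by B2m at 1372 ± 126. The nonclassical heavy chain gene H2-Q4 followed at 565 ± 59.9 FPKM, within reach of the spread of Psmb9. The next 5 genes lay within each other's spread: Psmb9 at 323 ± 201 FPKM, Psmb8 at 273 ± 153, Tap1 at 205 ± 25.3, Tap2 at 195 ± 81.5 and H2-T23 at 183 ± 17.3. Tapbp had the lowest mean, 91.3 ± 29.0 FPKM, which the spreads of Tap2 and Psmb8 reach. H2-D1 stood at 808 ± 177 FPKM, but its count, its FPKM and the library total together imply a transcript of 667 to 673 bases where the annotated one has 2102, so its place in this order is uncertain. The corresponding ratio of implied to annotated length was 0.588 to 0.593 for Psmb9, 0.714 to 0.720 for Tap2 and 0.741 to 0.748 for Psmb8, and 0.883 to 1.01 for the remaining 6 genes.

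The KO library lay above both WT libraries for 9 of the 10 genes, against 29.1% of the 2831 genes that reached 50 counts in 1 or more libraries. Because the genes were chosen from this contrast, the 2 shares are printed side by side and nothing is read from them. The median log2 ratio of KO to the WT mean over the 10 genes was 0.85 (range 0.07 to 1.56, on log2 of CPM plus 1), where the median over those 2831 genes was -0.27 and over all 7984 genes that entered the test -0.34. With WT replicate 1 as the only reference that median was 0.48, and with WT replicate 2 it was 0.88. For 7 of the 10 the step from the higher WT library to KO was also larger than the step between the WT libraries (14.8% of the 2831 genes, the same reservation applying).

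**Figure D2:**
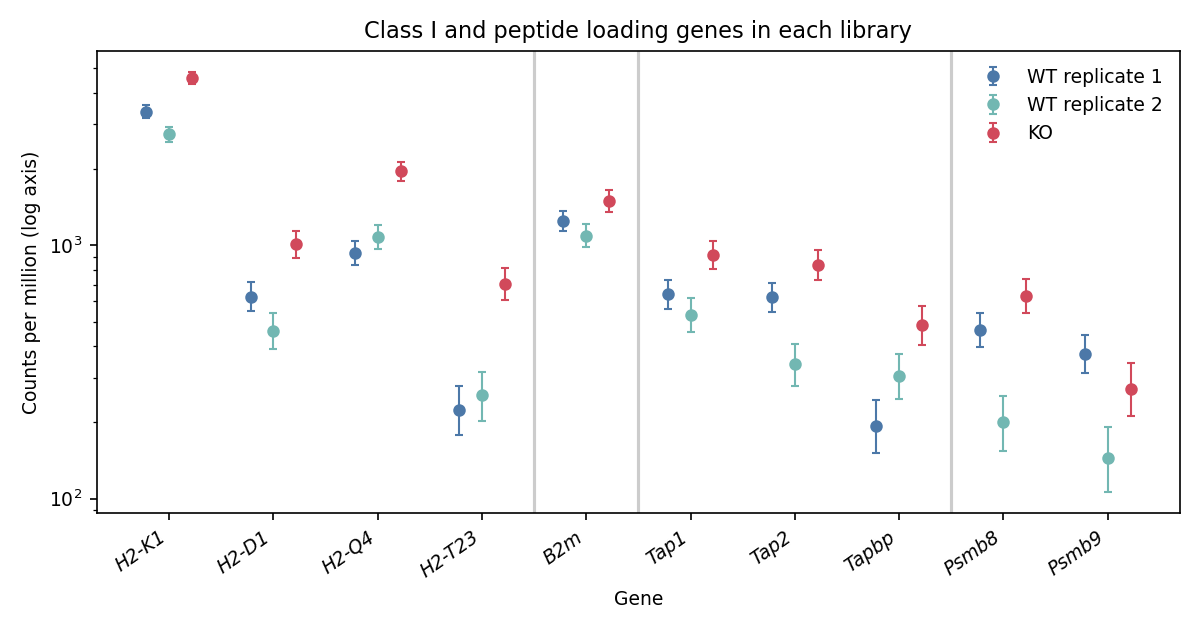
CPM of each gene (log axis) in the 3 libraries, with exact 95% Poisson intervals as bars; grey lines part heavy chains, light chain, loading genes and immunoproteasome genes. The KO point is the highest of the 3 for every gene except Psmb9, where it lies between the WT points.

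H2-K1 and H2-D1 encode classical heavy chains, the K and D molecules that present peptides to CD8 T cells. H2-K1 had 1219 and 890 counts in the WT libraries and 1211 in the smaller KO library, or 3371, 2739 and 4575 CPM. KO was 1.36-fold and 1.67-fold the WT libraries, which differed from each other by 1.23-fold. Among all genes ordered by count, its place was 4, 7 and 4. H2-D1 had 227, 149 and 267 counts, or 628, 459 and 1009 CPM, and KO was 1.61-fold and 2.20-fold the WT libraries. For both genes the counting intervals of KO lay above those of either WT library.

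H2-Q4 and H2-T23 encode nonclassical heavy chains, and H2-T23 gives Qa-1, the ligand of the inhibitory receptor CD94/NKG2A on natural killer cells. H2-T23 had 81, 83 and 187 counts, or 224, 255 and 706 CPM. KO was 3.15-fold WT replicate 1 (95% counting interval 2.42 to 4.15) and 2.77-fold WT replicate 2 (2.12 to 3.63), while the WT libraries differed by 1.14-fold. Its log2 ratio to the WT mean, 1.56, was the highest of the 10. H2-Q4 had 337, 351 and 520 counts, or 932, 1080 and 1964 CPM, which made KO 2.11 and 1.82 times the WT libraries, themselves 1.16-fold apart. In these 2 genes the WT libraries were close together and KO stood well clear of both.

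The make-up of the heavy chain counts does not depend on how libraries are scaled. Of the counts of the 4 heavy chain genes, H2-K1 took 65.4% (95% Wilson interval 63.2 to 67.5) and 60.4% (57.9 to 62.9) in the WT libraries and 55.4% (53.3 to 57.5) in KO. H2-T23 took 4.35% (3.51 to 5.37), 5.63% (4.57 to 6.93) and 8.56% (7.46 to 9.81) in the same order. H2-D1 took 12.2% (10.8 to 13.7) in WT replicate 1 and 12.2% (10.9 to 13.7) in KO, and the interval in WT replicate 2, 8.68 to 11.8, overlapped both. H2-Q4 took 18.1%, 23.8% and 23.8%, so its share in KO was that of 1 WT library. The share of H2-K1 was thus lowest, and that of H2-T23 highest, in the KO library, although H2-K1 also had more CPM there than in either WT library. For H2-K1 the step from WT replicate 1 to WT replicate 2 was as large as the step from WT replicate 2 to KO, and the intervals of the WT libraries did not overlap each other either, so its share in KO is not set apart from the spread between WT libraries.

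**Figure D3:**
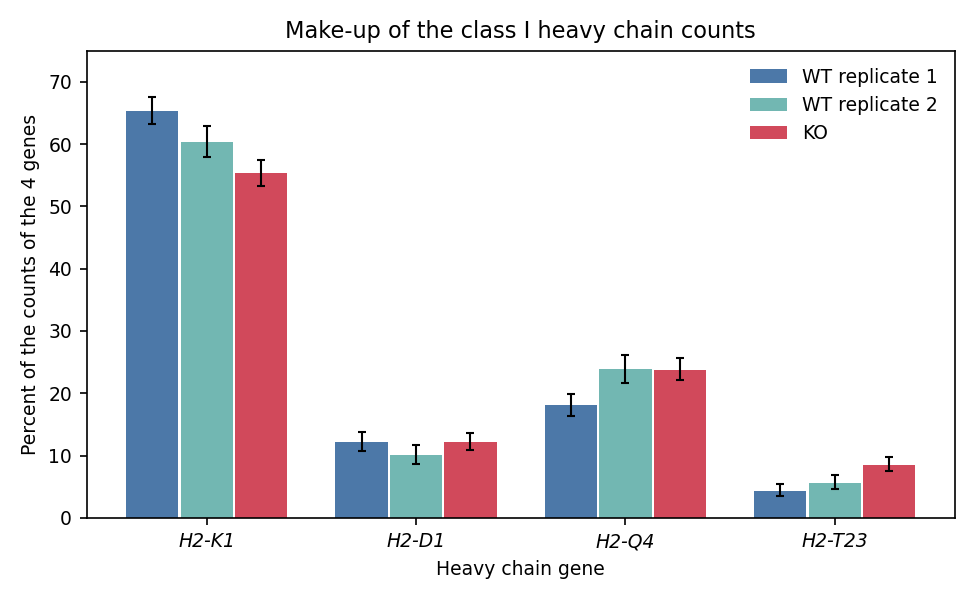
Share of the summed heavy chain counts taken by each of the 4 genes in the 3 libraries, in percent, with 95% Wilson intervals as bars. The KO bar is the lowest of the 3 for H2-K1 at 55.4% and the highest for H2-T23 at 8.56%, but for H2-K1 the WT libraries, at 65.4% and 60.4%, are as far apart as WT replicate 2 and KO.

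The heavy chain genes are near copies of one another, and the sources used here do not say how reads that fit several of them were counted. Windows of 50 bases along the annotated transcripts were compared with other genes in the count data, and genes absent from them were not compared. Of the windows in H2-K1, 8.79% occur in transcripts of other genes in the count data, with 14.3% in H2-D1, 24.3% in H2-Q4 and 28.8% in H2-T23. The share was 0% in B2m, Psmb8 and Psmb9 and under 1% in Tap1, Tap2 and Tapbp. Summed over the 27 class I H2 genes listed, of which 17 had a count, there were 2156, 1915 and 2702 counts, or 5962, 5893 and 10208 CPM. That sum, which does not change when reads move between these copies, had a log2 ratio of KO to the WT mean of 0.78. It differed less between the WT libraries than the 4 genes' own sum did (5154 and 4533 CPM, with 8255 in KO). The sum would change if shared reads were dropped, counted once per gene, or shared with genes outside the 27. H2-Q6, H2-Q7 and H2-Q9 had 0 counts in every library. All windows of H2-Q9, 39.9% of those of H2-Q7 and 36.8% of those of H2-Q6 occur in other genes in the count data. So do 35.4% of those of H2-Q5, which had counts. H2-T3, H2-M1, H2-M9, H2-M10.1 and H2-M11 also had 0 counts in every library, and their shares were only 0% to 3.79%.

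B2m encodes beta-2-microglobulin, the light chain that every class I heavy chain needs to reach the surface. It had 451, 355 and 397 counts, or 1247, 1092 and 1500 CPM. KO was 1.20-fold WT replicate 1 (95% counting interval 1.05 to 1.38) and 1.37-fold WT replicate 2 (1.19 to 1.59), and the WT libraries differed by 1.14-fold. The Poisson interval of KO, 1356 to 1655 CPM, met that of WT replicate 1, which reached up to 1368 CPM. After Psmb9 this was the smallest difference of the 10 genes, with a log2 ratio to the WT mean of 0.36. The summed FPKM of the 4 heavy chains was 2.52, 2.46 and 3.38 times that of B2m. The 2 WT values were thus close, and the KO library held more heavy chain RNA per B2m RNA than either. H2-D1, whose FPKM level is uncertain as said above, made up 25.3%, 21.6% and 25.3% of the FPKM sum. The size of the ratios is therefore uncertain too.

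Tap1 and Tap2 encode the paired chains of the peptide transporter, and Tapbp encodes tapasin. Tap1 had 232, 173 and 242 counts (642, 532 and 914 CPM), and KO was 1.43-fold and 1.72-fold the WT libraries. Tap2 had 226, 110 and 222 counts (625, 339 and 839 CPM). Its WT libraries differed by 1.85-fold, more than the 1.34-fold between WT replicate 1 and KO. Tapbp had 70, 99 and 128 counts (194, 305 and 484 CPM), with KO 1.59-fold the higher WT library and the WT libraries 1.57-fold apart. Tap1 and Tap2 counts were higher in WT replicate 1 than in WT replicate 2 and those of Tapbp lower, so the 3 loading genes did not order the WT libraries alike. The FPKM ratio of Tap1 to Tap2 was 0.884, 1.37 and 0.924, with KO between the WT libraries. Of the genes that overlap these, Zbtb22 on the strand of Tapbp had 27, 1 and 7 counts.

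Psmb8 and Psmb9 encode catalytic subunits that replace the constitutive Psmb5 and Psmb6 in the immunoproteasome. Psmb8 had 168, 65 and 167 counts (465, 200 and 631 CPM), so WT replicate 1 lay nearer to KO, 1.36-fold apart, than to WT replicate 2, 2.32-fold apart. Psmb9 had 135, 47 and 72 counts (373, 145 and 272 CPM). Its KO value lay between the WT values, which differed by 2.58-fold, and its log2 ratio was -0.46 against WT replicate 1 and 0.91 against WT replicate 2. The FPKM ratio of Psmb8 to Psmb9, which no scaling changes, was 0.820, 0.911 and 1.53, highest in KO. The immunoproteasome genes spread more between the WT libraries than the heavy chains did. Psmb9 was the 1 gene of the 10 whose KO value did not stand above both. Its divergent neighbour Tap1 did, although the 2 share the stretch of sequence printed above. In the RefSeq models, on which the counts were made, the genes do not overlap, while the GENCODE models overlap by 212 bases on opposite strands.

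**Figure D4:**
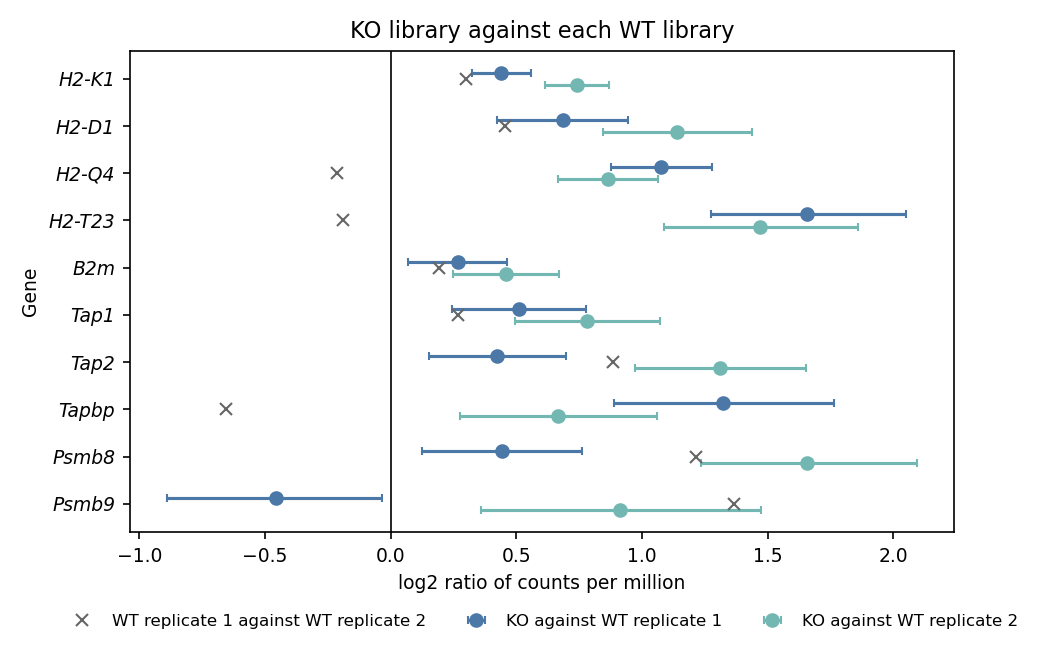
The log2 ratio of CPM in KO to that in WT replicate 1 and in WT replicate 2 for each gene, with exact 95% counting intervals, and crosses for WT replicate 1 against WT replicate 2. All points lie above 0 except that of Psmb9 against WT replicate 1, at -0.46, and the WT libraries stand farthest apart in Psmb9 and Psmb8.

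Among 743 genes with at least 50 counts in every library, the 5 whose log2 CPM, centred per gene, lay nearest to that of H2-K1 over the 3 libraries were Stk25, Numa1, Slc22a3, Cnpy3 and Tap1, at Euclidean distances of 0.03 to 0.05. Tap1 thus took place 5, B2m place 50, H2-D1 at 94 and Tap2 at 230. H2-Q4, Psmb8, Tapbp and H2-T23 came at places 237, 445, 447 and 515, and Psmb9, with 47 counts in WT replicate 2, was not ranked. With 3 libraries such a distance is a description only.

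The remaining genes of the pathway were taken from 5 lists of 76 genes, all of them in the files, of which 55 had enough counts to be tested. Across all 7984 genes tested, 8 (0.1%) were higher and 0 (0%) lower in KO at an adjusted p under 0.05 (edgeR quasi-likelihood test, Benjamini-Hochberg adjustment), and of the 55 pathway genes 0 were higher and 0 lower. At an unadjusted p under 0.05 in edgeR, 1 of the 55 was higher, Calr, and 1 lower, Lap3. Of all 7984 genes, 282 were higher and 520 lower at that level, so nothing is read from these 2 genes. DESeq2 called 0 of the pathway genes, but also 0 of all 11402 genes it gave an adjusted p. At an unadjusted p under 0.05 it had 1 pathway gene higher and 1 lower, beside 165 higher and 456 lower among all genes. With 1 KO library the spread came from the WT pair alone, so the power to call a difference was small. Of the 27 pathway genes that reached 50 counts in 1 or more libraries, 12 lay above both WT libraries and 6 below both, against 29.1% and 39.5% of all such genes, and their median log2 ratio was 0.42.

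Among the other heavy chain and class I-like genes, 3 of the 5 that reached 50 counts lay above both WT libraries and 0 below. The shares of all such genes were 29.1% and 39.5%, and 5 genes are too few to set beside them. H2-K2 had 22, 54 and 96 counts and H2-T10 37, 74 and 72. H2-Q1 had 26, 101 and 87 counts, H2-Q5 150, 23 and 101 and H2-Q10 25, 93 and 70. None passed the test, with adjusted p from 0.54 for H2-K2 to 0.89 for H2-Q10 (edgeR). The WT libraries differed several-fold in H2-Q1, H2-Q5 and H2-Q10, in contrast to the 4 heavy chain genes above. Class I-like genes outside the H2 family, Mr1, Cd1d1, Fcgrt and Hfe, had at most 20 counts in any library.

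The helpers of the endoplasmic reticulum lay on both sides of WT. Of the 8 that reached 50 counts, 4 lay above both libraries and 3 below, against 29.1% and 39.5% of all such genes. Calr encodes calreticulin, the chaperone of the peptide loading complex that holds the heavy chain, and had 366, 311 and 634 counts. It stood at 2395 CPM in KO against 985 ± 38.9 CPM (SD, n = 2) in WT, a log2 fold change of 1.32 (SE 0.34, adjusted p 0.066, edgeR), which did not pass. Pdia3, its partner ERp57 in the same complex, had 206, 172 and 89 counts and lay below both WT libraries, as did Ganab (189, 180 and 61), the glucosidase that trims the glycan calreticulin binds. Canx, the membrane-bound relative of calreticulin, had 139, 107 and 38 counts. Their log2 fold changes were -0.67 (SE 0.66, adjusted p 0.81), -1.18 (SE 0.71, adjusted p 0.62) and -1.27 (SE 0.87, adjusted p 0.70) in the edgeR test, and none passed. Hspa5, the general chaperone BiP, had 185, 89 and 139 counts. Erap1, the peptidase that trims peptides in the endoplasmic reticulum, had 25, 36 and 21, and the tapasin relative Tapbpl had 9, 5 and 21.

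Of the proteasome genes, the constitutive counterparts Psmb5 (22, 3 and 33 counts) and Psmb6 (25, 37 and 46) and the third immunoproteasome subunit Psmb10 (6, 31 and 31) had too few counts to set beside Psmb8 and Psmb9 with any precision. The FPKM ratio of Psmb8 to Psmb5 was 4.76, 13.5 and 3.15 and that of Psmb9 to Psmb6 was 6.94, 1.63 and 2.01, so KO was not set apart from both WT libraries in the same direction. The activator subunits Psme1 and Psme2 had 105, 66 and 102 and 34, 58 and 27 counts, and Psme3 had 55, 114 and 37. None of the 7 tested genes passed. Among the cytosolic peptidases, Lap3, leucine aminopeptidase, had 49, 30 and 0 counts (adjusted p 0.21, edgeR), and none of the 7 tested passed. Nrd1 had 99, 25 and 56 counts and Thop1 16, 39 and 15, both between the WT libraries in CPM. Blmh had 20, 10 and 22 counts and lay above both.

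Regulators of class I transcription gave no call among 20 tested. Nlrc5, the class I transactivator, had 69, 74 and 82 counts, which is 310 CPM in KO against 209 ± 26.1 CPM (SD, n = 2) in WT, with a log2 fold change of 0.61 (SE 0.85, adjusted p 0.87, edgeR). Irf1, an interferon-induced activator of this pathway, had 101, 22 and 48 counts, so KO lay between WT libraries that differed several-fold. The interferon-gamma receptor gene Ifngr1 had 44, 66 and 67 counts and the kinase gene Jak1 50, 72 and 22. Of the 10 regulators that reached 50 counts, 4 lay above both WT libraries, 2 below both and 4 between. Of all genes with 50 counts, 29.1% lay above both and 39.5% below both, so nothing is read from these positions.

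**Figure D5:**
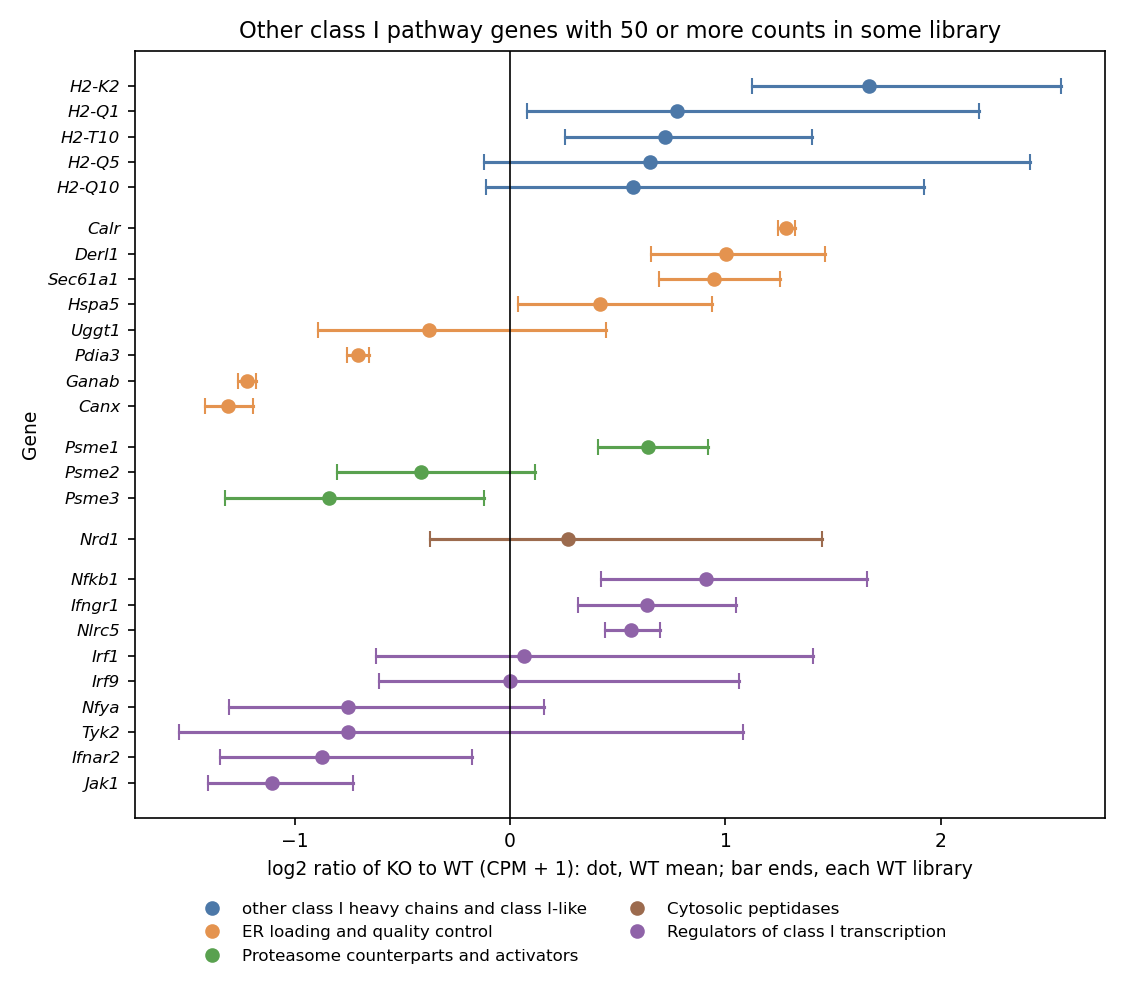
The log2 ratio of KO to WT (CPM plus 1) for the other pathway genes that reached 50 counts in any library, with 1 left out, coloured by list, with the dot for the ratio to the WT mean and the bar ends for the ratio to each WT library. Calr, Canx, Ganab and Pdia3 have short bars on opposite sides of 0, and the bars of H2-Q1, H2-Q5, H2-Q10 and Irf1 are long because the WT libraries differ.

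Cells of other types also carry class I RNA, and some of their markers differed between the libraries. Of 8 dendritic cell markers, 4 (Siglech, Batf3, Cd209a and Zbtb46) had 0 counts throughout, Clec9a had 0, 0 and 27 counts and Clec10a 32, 17 and 0, and the list summed to 99.5 and 58.5 CPM in WT and 113 in KO. The class II genes H2-Ab1 and Cd74 had 24, 11 and 201 and 7, 150 and 252 counts. Of 5 monocyte and macrophage markers, Ccr2 (0, 6 and 39 counts) and Csf1r (0, 4 and 14) were highest in KO and Lyz2 (32, 112 and 20) lowest, with sums of 108, 388 and 280 CPM. The 5 neutrophil markers (S100a8, S100a9, Ngp, Camp and Ltf) summed to 741 and 874 CPM in WT and 363 in KO. The part of these cells in the class I levels was not tested. Of the 4 B cell markers, Cd79a and Ms4a1 were at 0 and the list summed to 13.8, 55.4 and 0 CPM. Of the 6 T and NK cell markers 4 were at 0, and Nkg7 (68, 32 and 41 counts) made up most of the sums of 191, 105 and 155 CPM. Of the 5 endothelial and stromal markers, Cdh5, Col1a1 and Lepr were at 0 and Pecam1 had 52, 62 and 26 counts.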

How the data were processed

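RNA from sorted LKS cells was sequenced in 2 WT libraries and 1 KO library, grouped by sample title. Each deposited file has a row per RefSeq transcript with a whole-number count, the deposited count, and an FPKM value made by the authors, under no header. STAR and mm10 are named, without versions or roles, in the submitters' processing notes; for the counting tool, strand use and multi-mapping reads, a statement was not found in the sources used here. Each gene's count was the highest over its transcript rows (42574 rows, 24982 symbols), and its FPKM the sum over rows. CPM used the total of gene counts, and ratios a pseudocount of 1 CPM. No sample was dropped.

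The 10 genes and all lists were chosen with earlier results of these data known. Tests across all genes used edgeR 4.0.16 in R 4.3.3, with DESeq2 1.42.0 as an alternative. The edgeR steps were filterByExpr and TMM, then the quasi-likelihood test at a Benjamini-Hochberg adjusted p of 0.05. These steps were also run on simulated counts with changes larger than those of the 10 genes and a smaller spread than these libraries. That run does not measure the power or error rate of the test here. With 1 residual degree of freedom, the fit takes the spread of KO from the WT pair, and p-values measure only the spread between these libraries, which may be technical. The SE of a log2 fold change is its size over the root of its F statistic. Named genes were the 10; per list those past the test and up to 4 with the highest summed count; Kit, Ly6a; markers with 10 or more counts in some library; and the 5 genes nearest to H2-K1. H2-K2, Canx, Erap1, Tapbpl, Psmb5, Psmb10, H2-Ab1, Cd74 and the genes named at 0 or low counts are outside this rule and were chosen after their values were seen. Coordinates are from RefSeq GRCm38.p6, and 50-base windows and gene overlaps from GENCODE M21, the same build. Alternatives were other scalings, filters, gene counts, pseudocounts and leaving out each WT library. The values of 1 regulator are not reported here.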

Additional observations from a re-analysis of the deposited data

How the results depend on the processing

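No paired analysis was possible because the KO group has 1 library. The median log2 ratio of the 10 genes, 0.85, was 0.48 without WT replicate 2 and 0.88 without WT replicate 1, and between 0.84 and 0.90 under TMM or DESeq2 scaling, the mean or sum over transcript rows, the highest FPKM, a pseudocount of 5 CPM, or a library total without Rn45s. Of the 90 combinations of a gene and a setting, 89 gave a positive ratio, the exception being Psmb9 without WT replicate 2, at -0.46. The genes were chosen as higher in KO in these same libraries, which every setting reuses. The signs, and the counts of genes above WT given next, were thus largely set by that choice and are no added support. In settings added after seeing the data, 9 genes lay above WT with TMM, DESeq2, mean counts or FPKM, and 9 to 10 when 1 WT library was left out; the summed heavy chains, 0.78, were 0.83 with TMM and 0.84 with DESeq2 scaling, and 0.78 to 0.79 without 1 WT library. The median over the 2831 genes, -0.27, was -0.22 with either scaling. The 8 genes called higher became 0 with DESeq2 (165 higher at an unadjusted p under 0.05), 7 on library totals, 4 without a filter, 0 with at least 10 counts in every library or 50 in any (102), 1 with the mean over rows and 0 with their sum (239); the cause was not tested. No setting called a gene lower or a pathway gene. Leaving out a WT library leaves no residual degree of freedom, so the calls have no such value. Low counts limit genes under about 50 counts most.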
